A study of Rattus norvegicus with 12 samples.

Results

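The 9 genes described here encode feedback inhibitors of MAP kinase signalling. They are 5 dual-specificity phosphatase genes (Dusp1, Dusp4, Dusp5, Dusp6 and Dusp10), 2 Sprouty genes (Spry2 and Spry4) and 2 Spred genes (Spred1 and Spred2). They were taken by symbol, with 1 row each among the 23760 genes of the deposited tables, and all 9 were among the 19050 genes that passed the filter on low values. The RNA sequenced came from the hippocampus, a brain structure that forms memories, of rats (Rattus norvegicus), in 6 samples labelled NC and 6 labelled AS3h. The labels give the tissue for both groups and nothing on strain, age, treatment or time, and they expand neither abbreviation. The series title names CCR3 knockdown and impaired cognition from long underwater operation, but no label marks any of the 12 samples as a knockdown. Whether each sample is a different animal is not stated, and the p-values therefore rest on sample-to-sample spread, which may be technical.

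MAP kinase cascades carry signals from growth factors, neurotrophins, synaptic activity and stress to the nucleus, through Ras, RAF and MEK to ERK in the best known branch and through parallel kinases to JNK and p38. Active ERK drives transcription of its own inhibitors. The dual-specificity phosphatases remove phosphate from both the threonine and the tyrosine of the kinase activation loop, whereas Sprouty and Spred proteins act further upstream, between the receptor and RAF. In the hippocampus, ERK signalling is required for lasting synaptic plasticity and memory, and several of these phosphatase genes are transcribed after neuronal activity.

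Reads assigned to genes ranged from 29.6 M to 38.1 M per library. In the library with the fewest reads for any of the 9 genes, Dusp10 still had 173 reads, so none was near the limit of detection. Summed markers of neurons were at 207077 to 244363 in AS3h and at 189144 to 219500 in NC, with 1 of 7 called higher. Those of hippocampal principal cells were at 24888 to 41033 in AS3h and at 30026 to 39068 in NC, with none called. AS3h 5 stood apart in summed normalised counts of choroid plexus markers, at 71673 against 307 to 8025 in the other libraries, and of oligodendrocyte markers, at 563176 against 311114 to 400405. AS3h 2 stood apart in markers of meningeal or perivascular fibroblasts, at 7544 against 1111 to 2474, and of mural cells, at 7393 against 2916 to 4723. Summed endothelial markers were at 3237 to 4059 in AS3h and at 4709 to 6601 in NC, without overlap, with 2 of 5 called lower. Markers of neighbouring brain regions had 3 of 8 called lower, with sums of 1872 to 2692 in AS3h and 2507 to 3326 in NC, and microglial markers had 1 of 6 called lower, with sums of 4317 to 5564 and 4676 to 6082. Astrocyte markers had none of 6 called, with sums of 92932 to 102962 in AS3h and 99379 to 118527 in NC. Of all genes tested, 5.04% were called higher and 4.22% lower. All AS3h libraries were below all NC libraries for 2.04% of them. The part of these marker shifts in the results on the 9 genes was not tested. In bulk tissue, fewer cells of a type and less RNA per cell cannot be told apart.

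Of the 9 genes, Dusp4 and Dusp5 were higher in AS3h, none was lower, and 7 did not pass (limma, Benjamini-Hochberg adjusted p under 0.05 over all genes tested). Among all genes tested, 5.04% were called higher and 4.22% lower. The 9 genes were chosen with earlier results of these data known, so a difference from these shares is no independent evidence. The median log2 fold change, AS3h over NC, was 0.07 over the 9 genes and -0.0043 over all genes tested. At an unadjusted p under 0.05, 3 of the 9 were higher and 0 lower, where 24.9% of all genes tested passed in either direction, and limma-voom on the recovered reads also called 2 higher and 0 lower. Dusp4 and Dusp5 both encode inducible phosphatases of the nucleus. Values are normalised read counts throughout, obtained from the deposited log2 values.

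**Figure D1:**
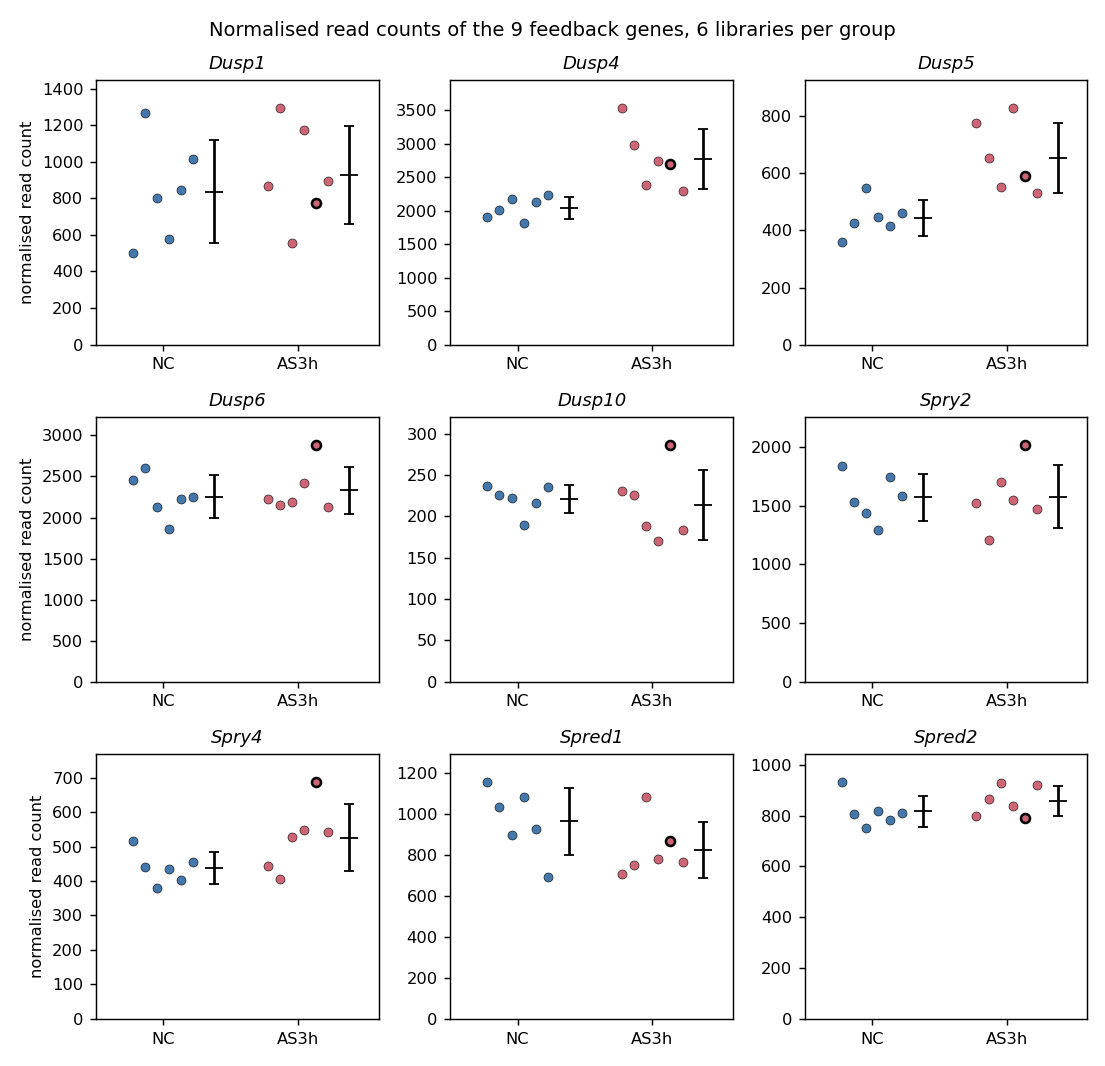
Normalised read counts (vertical axes, from 0) of the 9 genes in each NC and AS3h library, with points in replicate order and the mean ± SD (n = 6) to the right of each group. The thick outline marks AS3h 5. Dusp4 in AS3h starts at 2292, above the highest NC library at 2240.04, and AS3h 5 is the highest AS3h library for Dusp6, Dusp10, Spry2 and Spry4.

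Dusp4 encodes a nuclear phosphatase, also named MKP-2, that acts on ERK and JNK. Its normalised count was lowest at 1818, at 2068 in the median and highest at 2240.04 in NC, and lowest at 2292, at 2723 in the median and highest at 3535 in AS3h. All 6 AS3h libraries were above all 6 NC libraries, as for 3.01% of all genes tested, although the gap between the groups was narrow and AS3h 1 was the highest. The means were 2047 ± 165 in NC and 2774 ± 451 in AS3h (SD, n = 6 each). The log2 fold change was 0.43 ± 0.09 (SE; 95% interval 0.23 to 0.62), a 1.34-fold difference (limma adjusted p = 0.00989). A two-sided exact permutation test over the 12 libraries gave p = 0.00216, the smallest that 6 against 6 can give. Dusp4 stayed called in each of the 12 omissions of 1 library, with log2 fold changes of 0.35 to 0.48.

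Dusp5 encodes a nuclear phosphatase that is specific for ERK and is itself induced by ERK. Its normalised count was lowest at 358, at 435 in the median and highest at 549 in NC, and lowest at 529, at 621 in the median and highest at 828 in AS3h. The groups overlapped only through AS3h 6, the lowest AS3h library, which lay under NC 3; the other 5 AS3h libraries were above every NC library. The means were 442 ± 63.1 in NC and 654 ± 123 in AS3h (SD, n = 6 each). The log2 fold change was 0.56 ± 0.12 (SE; 95% interval 0.30 to 0.81), a 1.47-fold difference (limma adjusted p = 0.0111, exact permutation p = 0.00433). It also stayed called in each of the 12 omissions, with log2 fold changes of 0.48 to 0.62.

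With AS3h 4 and AS3h 5 left out, whose choroid plexus marker sums were the highest, Dusp4 and Dusp5 were at 0.43 and 0.50 on the log2 scale (limma adjusted p = 0.0434 and 0.045). Neither passed once blood and choroid plexus marker levels entered the fit as covariates: Dusp4 was at 0.34 and Dusp5 at 0.32 (limma adjusted p = 0.224 and 0.331), in a fit that called 151 genes in all against 1764 without covariates. Of the 12 choroid plexus markers tested 1 was called higher and none lower, and of the 7 blood marker rows none was called in either direction. Both covariates were nonetheless higher in AS3h on average. The mean log2 level was 8.73 in AS3h and 7.92 in NC for blood, and 5.74 and 4.21 for choroid plexus. The groups overlapped in part (two-sided exact permutation p = 0.0974 and 0.102). Summed blood markers were at 12472 to 39365 in AS3h and at 9618 to 23402 in NC. The part of these tissues in the Dusp4 and Dusp5 differences was not tested beyond these fits.

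**Figure D2:**
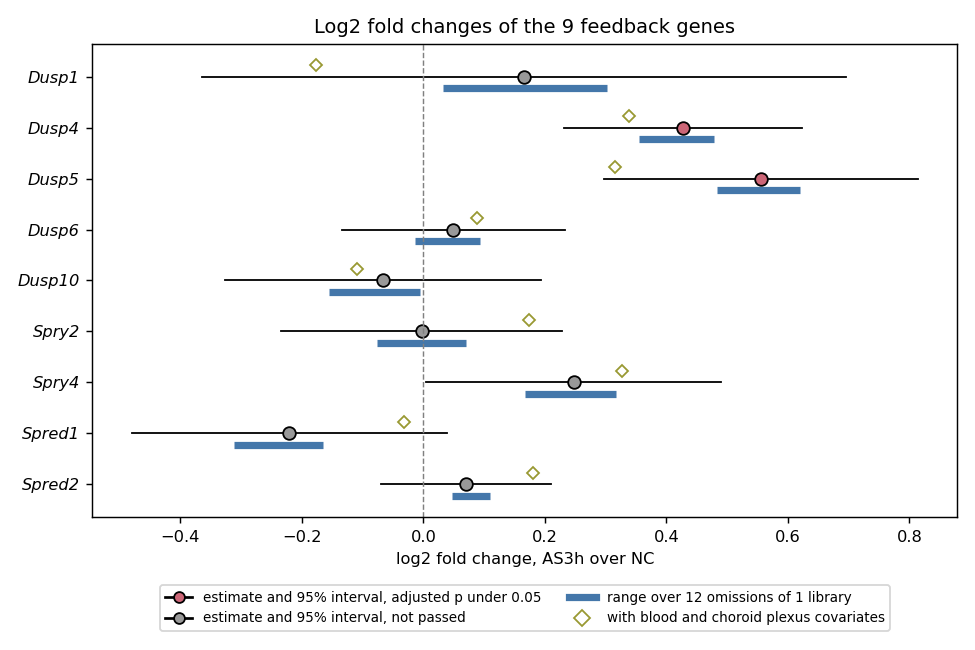
Log2 fold change, AS3h over NC, of each of the 9 genes (horizontal axis). Circles and black lines are the estimate and its 95% interval from 6 libraries per group, red where the adjusted p was under 0.05; blue bars span the 12 omissions of 1 library and diamonds are the fit with blood and choroid plexus covariates. Dusp4 and Dusp5 lie at 0.43 and 0.56, and their diamonds at 0.34 and 0.32.

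Promoter windows are shown for Dusp5, which rose, and for Dusp1 and Dusp6, phosphatase genes that did not pass, so that the response elements near their starts can be compared. They run from 250 bases before to 50 bases after the gene start in RefSeq (build GRCr8), matched by symbol; 8 of the 9 genes matched, Dusp4 not among them. The coordinates belong to that build, not to the mRatBN7.2 build named for the files. Capitals mark matches on either strand to the cyclic AMP response element (CRE) TGACGTCA and its half-site TGACG, AP-1 TGANTCA, the ETS core CCGGAA, the CArG box bound by serum response factor, EGR1 GCGTGGGCG and the E-box CACGTG. The search also covered the sequence TATAAA. Matches to the CRE hold half-sites within them.
Dusp5, chr1:262543524-262543823, plus strand: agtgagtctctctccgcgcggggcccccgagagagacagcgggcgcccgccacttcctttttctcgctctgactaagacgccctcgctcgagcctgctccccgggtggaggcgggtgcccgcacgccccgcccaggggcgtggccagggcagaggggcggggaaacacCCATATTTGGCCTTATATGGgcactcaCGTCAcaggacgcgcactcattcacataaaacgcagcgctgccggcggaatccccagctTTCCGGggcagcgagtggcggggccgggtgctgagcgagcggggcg
Dusp1, chr10:17184603-17184902, plus strand: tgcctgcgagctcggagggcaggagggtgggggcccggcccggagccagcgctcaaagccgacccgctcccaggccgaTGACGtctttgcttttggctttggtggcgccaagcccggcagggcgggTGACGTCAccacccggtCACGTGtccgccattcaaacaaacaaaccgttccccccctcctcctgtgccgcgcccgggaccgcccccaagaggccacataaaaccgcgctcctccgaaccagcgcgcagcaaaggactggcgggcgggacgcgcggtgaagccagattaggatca
Dusp6, chr7:35979354-35979653, plus strand: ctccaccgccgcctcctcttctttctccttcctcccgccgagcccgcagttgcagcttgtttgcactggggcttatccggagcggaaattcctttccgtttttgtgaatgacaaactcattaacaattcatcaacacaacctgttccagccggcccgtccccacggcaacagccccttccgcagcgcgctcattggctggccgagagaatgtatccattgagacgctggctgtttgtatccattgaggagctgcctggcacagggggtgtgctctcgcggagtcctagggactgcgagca

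The Dusp5 window held 2 CArG boxes side by side, at bases 169 to 178 and 179 to 188 counted from the 5′ end of the window. Of 33469 windows in the table, 1.64% held at least 1 CArG box and 0.0209% at least 2, which was 7 windows. A share for at least 2 matches was computed for the CArG box alone. Whether these boxes bear on the Dusp5 difference was not tested. The Dusp5 window also held a CRE half-site at bases 196 to 200, found in 21.2% of all windows, and an ETS core at bases 255 to 260, found in 15% of them. The Dusp1 window held a full CRE at bases 127 to 134, present in 1.83% of windows, a further half-site at bases 79 to 83, and an E-box at bases 144 to 149, present in 6.42%. None of the motifs, as spelled for the search, was in the Dusp6 window. The ETS core was searched only as CCGGAA. Its shorter form GGAA was not searched, and the Dusp5, Dusp1 and Dusp6 windows printed above all hold it on either strand. A half-site and an ETS core were also in 1 of the 2 Spry2 windows, an ETS core was in the Spry4 window and a half-site in the Spred2 window, all genes that did not pass. AP-1, EGR1 and TATAAA, in 7.33%, 0.544% and 14.2% of all windows, were in none of the 9 windows found for the 8 genes. These are matches of letters in 1 window per start, and no binding was measured.

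Dusp1, Dusp6 and Dusp10, the other phosphatase genes of the group, did not pass. Dusp1 encodes the nuclear phosphatase MKP-1, an immediate early gene product that acts on p38 and JNK as well as ERK. Relative to its mean, it varied more within groups than any other of the 9 genes. NC ran from 501 through a median of 825 to 1268, and AS3h from 556 through 880.07 to 1293. The groups overlapped almost entirely, with NC 2 and AS3h 2 highest and NC 1 and AS3h 3 lowest. AS3h 2 is also the library with the highest fibroblast and mural cell marker sums, whose part in its Dusp1 value was not tested. Its log2 fold change was 0.17 ± 0.24 (SE; 95% interval -0.36 to 0.70; limma adjusted p = 0.729), an interval wide enough to hold the estimates for Dusp4 and Dusp5. It was at -0.18 with the blood and choroid plexus covariates.

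Dusp6 encodes MKP-3, the cytoplasmic phosphatase that is specific for ERK. It ran from 1863 through a median of 2237 to 2609 in NC and from 2123 through 2209 to 2880.37 in AS3h, where AS3h 5 was above every NC library and the other 5 lay within the NC range. The log2 fold change was 0.05 ± 0.09 (SE; 95% interval -0.13 to 0.23; limma adjusted p = 0.779). Dusp10 encodes MKP-5, which acts on p38 and JNK rather than ERK. It ran from 190.02 through 224 to 237 in NC and from 169.9 through 207 to 286 in AS3h. In AS3h it lay both above the NC range, in AS3h 5, and below it, in 3 libraries, and its log2 fold change was -0.07 ± 0.12 (SE; 95% interval -0.33 to 0.19; limma adjusted p = 0.789).

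Because Dusp4 and Dusp5 passed and Dusp6 did not, the difference between them was tested directly as a ratio within each library, which does not depend on library scaling. The genes of these 2 ratios were picked for having passed or not, so the p-values, which are not adjusted, are no independent evidence. The Dusp4 to Dusp6 ratio of normalised counts was 0.917 ± 0.114 in NC and 1.2 ± 0.239 in AS3h (SD, n = 6 each), and the two-sided exact permutation p was 0.0152. It ran from 0.77 to 1.03 in NC and from 0.936 to 1.59 in AS3h, with 5 AS3h libraries above every NC library. The Dusp5 to Dusp6 ratio was 0.2 ± 0.0437 in NC and 0.283 ± 0.0573 in AS3h (SD, n = 6 each), and the two-sided exact permutation p was 0.0216, with 3 AS3h libraries above every NC library. The groups overlapped for both ratios, the latter running from 0.146 to 0.259 in NC and from 0.205 to 0.348 in AS3h.

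Sprouty proteins are membrane-associated inhibitors that dampen receptor tyrosine kinase signalling to Ras and RAF. Spry4 ran from 380 through a median of 438 to 516 in NC and from 406 through 535 to 686 in AS3h. Of the AS3h libraries, 4 were above every NC library, with AS3h 5 highest, while AS3h 1 and AS3h 2 lay within the NC range. Its log2 fold change was 0.25 ± 0.11 (SE; 95% interval 0.0047 to 0.49), with an unadjusted p of 0.0462 and an adjusted p of 0.193 in limma, so it did not pass. Without AS3h 5 it was 0.17. Spry2 ran from 1294 through 1556 to 1838 in NC and from 1209 through 1531 to 2015 in AS3h. The AS3h libraries spanned the whole NC range, and its log2 fold change was -0.0029 ± 0.11 (SE; 95% interval -0.23 to 0.23; limma adjusted p = 0.992).

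Spred proteins carry an EVH1 domain and bring neurofibromin, a Ras inactivator, to the membrane. Spred1 ran from 694 through a median of 980 to 1154 in NC and from 706 through 771 to 1083 in AS3h. Most AS3h libraries were in the lower part of the NC range, but none was below it, and the log2 fold change was -0.22 ± 0.12 (SE; 95% interval -0.48 to 0.04; limma adjusted p = 0.28). Spred1 was at -0.03 with the blood and choroid plexus covariates. Spred2 ran from 751 through 808 to 930.4 in NC and from 789 through 852 to 928 in AS3h. All 6 AS3h libraries lay inside the NC range, and the interval was the narrowest of the 9 genes (log2 fold change 0.07 ± 0.07, SE; 95% interval -0.07 to 0.21; limma adjusted p = 0.552).

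AS3h 5 was the highest AS3h library for 4 of the 9 genes, Dusp6, Dusp10, Spry2 and Spry4. In AS3h 5 they stood at 2880.37, 286, 2015 and 686, and the next highest AS3h libraries at 2415, 230.1, 1700.29 and 547. This is the library with 71673 summed choroid plexus and 563176 summed oligodendrocyte marker counts, and the part of either in these 4 values was not tested. Without it the log2 fold changes of Dusp6, Dusp10 and Spry2 were -0.01, -0.15 and -0.08, and none passed.

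Covariation within groups was described from the log2 values after each group mean was subtracted, over 36 pairs of the 9 genes and 12 libraries. Spry2 and Spry4 had the highest Pearson r, 0.75 (permutation p = 0.014), with a Spearman rho of 0.68 (permutation p = 0.0238). The r was 0.37 without the 2 libraries farthest from the Spry2 median, so that it rests largely on them, and 0.61 without AS3h 5. For the pairs below, too, the 2 farthest libraries are those of the gene named first. Outlying libraries of the other gene can therefore remain. Dusp6 and Spry2 had an r of 0.72 (permutation p = 0.0159), a rho of 0.73 (permutation p = 0.0124), and an r of 0.72 without the 2 farthest libraries and of 0.57 without AS3h 5. Dusp6 and Spry4 had an r of 0.62 (permutation p = 0.0432) and a rho of 0.53 (permutation p = 0.091), and without AS3h 5, the highest AS3h library for all 3 genes, their r was 0.38. Dusp4 and Dusp5 had an r of 0.67 (permutation p = 0.0324) and a rho of 0.68 (permutation p = 0.0285), and an r of 0.51 without the 2 farthest libraries. Dusp5 and Spred2 had the most negative r, -0.70 (permutation p = 0.0221), with a rho of -0.61 (permutation p = 0.0532), and an r of -0.71 without the 2 farthest. Dusp4 and Spred1 had the most negative rho, -0.72 (permutation p = 0.0109). Their r was -0.65 (permutation p = 0.0211), and -0.90 without the 2 farthest. No pair passed Benjamini-Hochberg adjustment over the 36 pairs, the smallest adjusted permutation p being 0.149 for r and 0.224 for rho, and libraries share depth and tissue makeup.

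**Figure D3:**
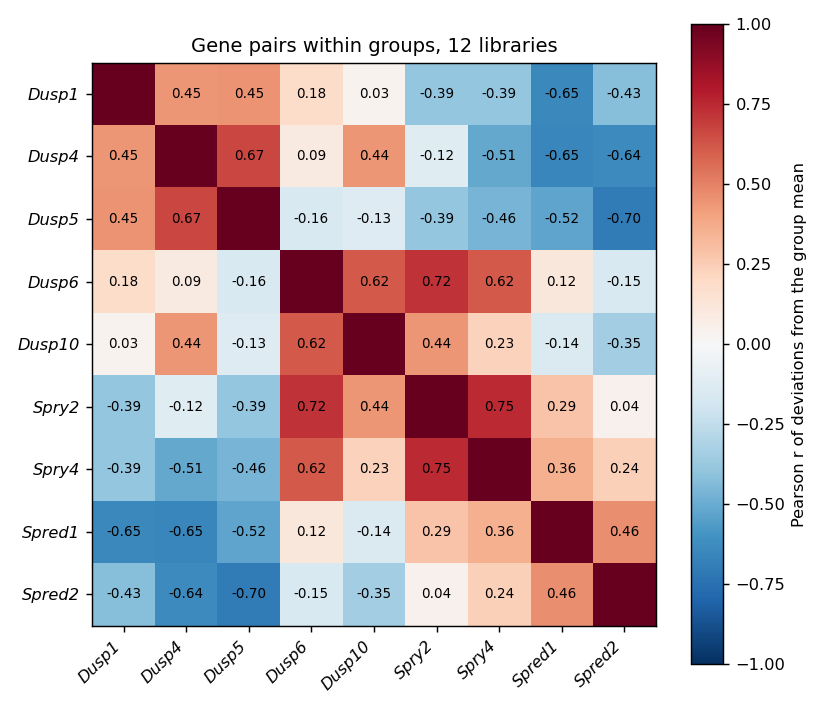
Pearson r between each pair of the 9 genes (both axes), from log2 values with the group mean removed, over 12 libraries; red is positive and blue negative. Dusp6, Spry2 and Spry4 have positive values of 0.62 to 0.75 with each other (0.38 to 0.61 without AS3h 5), and Dusp4 and Dusp5 have negative values of -0.70 to -0.52 with Spred1 and Spred2.

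The genes whose within-group pattern was most like each of the 9 were listed as a description, by Pearson r over the 12 libraries among 11747 genes with a mean normalised count of at least 100. The nearest to Dusp4 were Gata2 and Pxn, each at an r of 0.95, and the nearest to Dusp5 were Rnase4 at 0.93 and Ttc8 at 0.92. Ivd and Esam were nearest to Dusp1 (both 0.93), Tek and Acsl1 to Dusp6 (both 0.86) and Eml1 and Csgalnact2 to Dusp10 (both 0.89). Tmem229b and Doc2b were nearest to Spry2 (0.91 and 0.90), and B4galt5 and Sox2 to Spry4 (both 0.92). For Spred1 they were Tet1 and Fubp1 (0.95 and 0.94), and for Spred2 Fcgbp and Matn2 (0.89 and 0.87). The highest r among 11747 genes over 12 libraries can be large by chance alone. No chance level was computed, so these r are no evidence of shared regulation.

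The other genes of the pathway were taken from 9 lists by role, 150 rows in all, of which 17 were higher, 4 lower and 129 did not pass. Their median log2 fold change was 0.06, against -0.0043 over all genes tested, and 9.26% of all genes tested were called in either direction. The lists were also chosen with earlier results of these data known, so their shares, here and below, are no independent evidence. None of the 5 other MAP kinase phosphatases passed, although all 5 had a positive log2 fold change. The one with the smallest p was Dusp8, a JNK-directed phosphatase gene of the brain, with a mean of 1586 ± 143 for NC and 1798 ± 96.04 for AS3h (log2 fold change 0.18 ± 0.06, limma adjusted p = 0.0791). Dusp8 passed with limma-voom (adjusted p = 0.0358) and without NC 5 (0.0413). None of Spry1, Spry3 and Spred3 passed; Spry1 had the smallest p, with a mean of 109 ± 19.9 for NC and 142 ± 39.6 for AS3h (log2 fold change 0.36 ± 0.18, limma adjusted p = 0.238).

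Among 21 other feedback regulators 3 were higher and 1 lower. Rasa1, which encodes a GTPase-activating protein that switches Ras off, fell from 1918 ± 165 to 1452 ± 138 (log2 fold change -0.40 ± 0.07, limma adjusted p = 0.0033), and all 6 AS3h libraries were below all 6 NC libraries, as for 2.04% of all genes tested. Pebp1, the RAF kinase inhibitor protein gene, rose by 0.20 on the log2 scale (limma adjusted p = 0.0253). Errfi1, which encodes an inhibitor of the epidermal growth factor receptor, rose by 0.38 and Spsb1 by 0.39 (limma adjusted p = 0.0413 and 0.0443). Pebp1, Errfi1 and Spsb1 lost their calls in 4, 9 and 8 of the 12 omissions of 1 library (adjusted p up to 0.0635, 0.0882 and 0.106).

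Of 17 growth factor ligands tested 2 were higher, 1 was lower and 14 did not pass. Of 16 receptors 2 were higher, 1 was lower and 13 did not pass. The shares over all genes tested, for these lists and those that follow, were 5.04% higher and 4.22% lower. Among the ligands, Tgfa, an epidermal growth factor receptor ligand, rose from 843 ± 41 to 1107 ± 157 (log2 fold change 0.38 ± 0.08, limma adjusted p = 0.00842). Its groups did not overlap, as for 3.01% of all genes tested in that direction. Pdgfb rose by 0.32 on the log2 scale and the neurotrophin gene Ntf3 fell by 0.54 (limma adjusted p = 0.0325 and 0.0454), and these lost their calls in 6 and 8 of the 12 omissions (adjusted p up to 0.0797 and 0.0939). Among the receptors, Fgfr2 and Fgfr3, for fibroblast growth factors, rose by 0.19 and 0.22, and Flt1, for vascular endothelial growth factor, fell by 0.27 (limma adjusted p = 0.0402, 0.0352 and 0.0378). Fgfr2, Fgfr3 and Flt1 lost their calls in 9, 8 and 7 of the 12 omissions (adjusted p up to 0.0932, 0.0709 and 0.0749). Flt1 is also 1 of the endothelial markers whose sums were lower in AS3h, with 2 of 5 called lower. Esam and Tek, endothelial genes outside that list, were at 0.43 and 0.09 on the log2 scale (limma adjusted p = 0.0326 and 0.556).

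Between receptor and kinase, 2 of 22 adaptor and Ras activation rows were higher and none lower. Ptpn11, which encodes the phosphatase SHP2 needed for full Ras activation, rose from 11477 ± 1118 to 14680.0 ± 1519 (log2 fold change 0.35 ± 0.07, limma adjusted p = 0.00734). Gab2, its docking protein gene, rose from 303 ± 34.5 to 391 ± 27.2 (log2 fold change 0.37 ± 0.09, limma adjusted p = 0.0164). The AS3h libraries were above all NC libraries for both, as for 3.01% of all genes tested. Of 21 ERK cascade kinases and scaffolds only Mknk2 passed; it encodes a kinase downstream of ERK and p38 that phosphorylates the translation factor eIF4E, and it rose from 1618 ± 122 to 2146 ± 107 (log2 fold change 0.41 ± 0.06, limma adjusted p = 0.000602). Of 22 JNK and p38 cascade genes, Map3k11 and Map2k3, kinases upstream of JNK and of p38, rose by 0.37 and 0.42 and none fell (limma adjusted p = 0.0128 and 0.0304), Map2k3 losing its call in 5 of the 12 omissions (adjusted p up to 0.0734).

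The list of ERK-responsive transcription factors and targets had 6 of 24 genes higher and 1 lower, with a median log2 fold change of 0.15. Fos, Junb and Fosl1, which encode subunits of AP-1, rose by 1.22, 0.73 and 0.82 on the log2 scale (limma adjusted p = 0.000587, 0.000758 and 0.00237). Each was without overlap between the groups, as were 3.01% of all genes tested in that direction. The other 3 that were higher were Spsb1 and the early growth response genes Egr1 and Egr2, the last pair named after their values were seen. Ccnd1, the cyclin D1 gene, fell from 950.06 ± 46.5 to 594 ± 53.9 (log2 fold change -0.68 ± 0.07, limma adjusted p = 5.35e-05), also without overlap. With the blood and choroid plexus covariates only Ccnd1, of the 21 pathway genes that passed, still did. Leaving Egr1 and Egr2 aside, 19 had passed, and the other 18 of these had limma adjusted p of 0.0563 to 0.519.

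**Figure D4:**
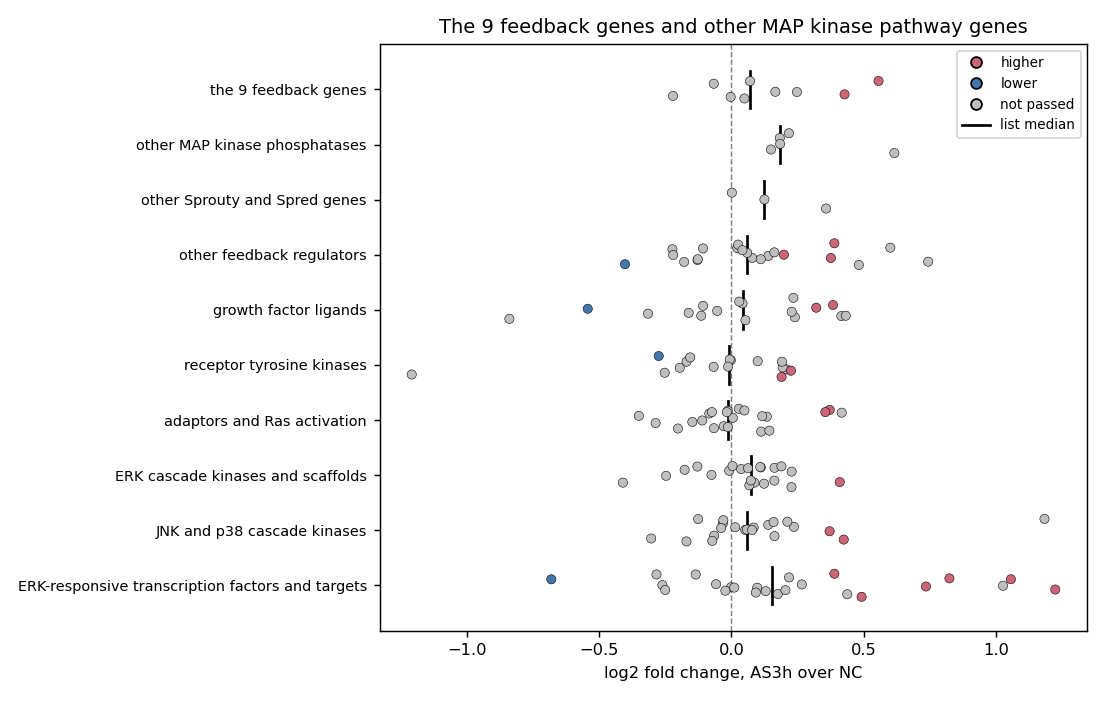
Log2 fold change, AS3h over NC (horizontal axis), of the 9 genes and of the other MAP kinase pathway genes by role; each point is 1 gene, the black bar is the list median, red is higher, blue lower and grey not passed at an adjusted p of 0.05. The 5 other phosphatases are all to the right of 0 and grey, and the ERK-responsive list runs from -0.68 (Ccnd1) to 1.22 (Fos).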

How the data were processed

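Per the labels, strand-specific libraries were made from total RNA of rat hippocampus, 1 file per sample. A build, mRatBN7.2, and 2 tools, STAR and FastQC 0.11.5, are listed without a role, per the submitters' processing notes. The read counter, its strand option and the annotation were not given in the sources used, so overlapping genes may share reads. The deposited values are on a log2 scale; from the values, each is log2(normalised count + 1), the reads of a gene having been scaled by a library factor of 0.92 to 1.16. Whole reads came back in 100% of values (within 0.02 read). Each file's sample came from the sample records and its group from the title.

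Groups were compared as planned, by limma (3.58.1, R 4.3.3) with trended, robust empirical Bayes variances, group only, on genes with a normalised value of at least 1 in at least 6 libraries, and Benjamini-Hochberg adjustment over all 19050 at 0.05. Log2 fold changes are differences of log2(value + 1), which understates low genes. Named genes were the 9 genes, up to 4 called genes per pathway list by smallest p (or the 1 with the smallest p), and the 2 genes most alike each of the 9; exceptions are marked. The 9 genes and the lists were chosen with earlier results of these data known. Alternatives were limma-voom on recovered reads (with quality weights), no filter or a minimum of 10, a pseudocount of 0.1, other library factors, a replicate block, omissions of libraries, and blood and choroid plexus covariates. The fit was tested on simulated data. No 2 replicates were alike within counting noise (lowest chi-square over degrees of freedom 11.4). Permutations of correlations used 100000 resamples within groups. Sequences are from RefSeq (GRCr8). Python 3.11.15 and matplotlib 3.10.9 were used.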

Additional observations from a re-analysis of the deposited data

Results flagged for a closer look

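A library stood far from the other 5 of its group, by a gap test at the 95% level, in 9 of 86 groups of values examined; chance gives about 1 in 20. Among the 9 genes, this was NC 1 for Spred2, at 930.4 normalised reads. Among pathway genes in AS3h, the highest library stood apart for Tgfa at 1406, Ptpn11 at 17556 and Gab2 at 444. Among summed marker counts in AS3h, the highest library stood apart for choroid plexus at 71673, oligodendrocytes at 563176, mural cells at 7393 and meningeal or perivascular fibroblasts at 7544. In NC, the lowest library stood apart for microglial markers at 4676. Without AS3h 5, Tgfa and Ptpn11 were at 0.31 and 0.30 on the log2 scale and still passed.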

How the results depend on the processing

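The count of 2 genes higher and 0 lower among the 9 was the same in 20 of 21 alternative fits; with the blood and choroid plexus covariates it was 0 and 0. The same covariates gave 151 changed genes and 1 changed pathway gene, and leaving out AS3h 4 and AS3h 5 together gave 860 and 13, against 1764 and 21; the cause was not tested. Over omissions of 1 library, changed genes ranged from 1030 (without NC 2) to 1788 and changed pathway genes from 11 (without AS3h 4) to 21; without AS3h 4 there were 1109 changed genes, and without NC 2 there were 12 pathway genes. Limma-voom called 2300 genes. No pairing by replicate number was seen in the values: deviations of same-numbered libraries correlated at -0.015 to 0.027, and 0 of 12 libraries correlated best with its own number. A pairing with little effect on expression would not show in this check. With the replicate number as a block, 1296 genes were called and Dusp4 and Dusp5 passed (limma adjusted p = 0.0367 and 0.0388). In that fit 7 of the 19 named pathway genes, Egr1 and Egr2 aside, did not pass (limma adjusted p = 0.0553 to 0.105). The sign of the log2 fold change varied for Spry2 in 8 alternatives, for Dusp6 in 3 and for Dusp1 in 1, all without a call. Depth bears most on Dusp10, which had the fewest reads of the 9 genes (173 in the lowest library).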

Other observations

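The PEA3-family ETS factor genes, often used as markers of sustained ERK output, did not pass. Etv5 had a mean of 2705 ± 311 for NC and 3044 ± 216 for AS3h (log2 fold change 0.18 ± 0.07, limma adjusted p = 0.156), Etv4 at 279 ± 41.3 and 227 ± 18.8 (-0.28 ± 0.11, adjusted p = 0.113), and Etv1 at 4483 ± 836 and 3778 ± 1026 (-0.26 ± 0.16, adjusted p = 0.332). Of the neurotrophin BDNF and its receptor, Bdnf was at -0.32 (limma adjusted p = 0.155) and Ntrk2 at -0.0025 (adjusted p = 0.988). These genes were picked from the pathway lists after their values were seen.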
